A study of Caenorhabditis elegans with 2 samples.

Results

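Autosomal intergenic peaks of HIM-1, the SMC1 subunit of cohesin, are described here. A peak belonged to this set when it was in the deposited optimal list (ce11), lay on chromosome I, II, III, IV or V, and had its summit more than 500 bp from every protein-coding 5' end, outside every protein-coding transcript and more than 250 bp from every tRNA gene of the Ensembl WBcel235 annotation. The rule selected 445 of the 1797 optimal peaks, and of the 1391 on autosomes. The other autosomal peaks were 627 promoter peaks, 303 peaks inside transcripts and 16 left out by the tRNA distance alone.

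Chromatin immunoprecipitation sequencing (ChIP-seq) used whole hermaphrodites of the Caenorhabditis elegans strain YL576, which stably carry HIM-1 with eGFP and FLAG fused at its C-terminus. Worms were L4 larvae or young adults, 51 hours after the release of starved L1 larvae obtained by bleaching. There was 1 group with 2 biological replicates, called against a shared control, and neither an untagged strain nor GFP alone was used here. The free text of the labels named an anti-GFP antibody, whereas their antibody field named him-1. Whole worms mix somatic tissues with the germ line, so binding in all cells at a low level and binding in a few cells at a high level cannot be told apart. With 1 group there is no condition to compare, and peaks of 1 pair of libraries are not replicates. The shares below are therefore descriptions, set beside the same shares in other peaks and in eligible sequence, with Wilson 95% intervals that cover counting error only. Eligible sequence is all autosomal sequence that meets the same distance rule, 23.2 Mb or 28.2% of autosome length.

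Cohesin is a ring of 2 SMC proteins closed by a kleisin subunit. It holds sister chromatids together from replication to division, and it also forms chromatin loops and acts in the meiotic germ line. In many organisms its loader places it at active promoters and at other accessible sites, from which it can move along the chromosome. Intergenic sites in the compact worm genome lie between closely spaced genes, and they include regulatory elements and the genes of small non-coding RNAs.

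The sequences of 10 peaks show the kinds of site that the results turn on. They were chosen after their values were seen, as the highest peaks of each kind whose summit window touches no protein-coding transcript and lies on chromosomes II to V. For RNA genes the window also had to hold at least 20 bases of the gene. Each is 201 bases long, runs from 100 bases before to 100 bases after the summit in ce11, and was read from the RefSeq copy of WBcel235. The first pair lies at genes of SL2, the small RNA whose leader is spliced onto downstream messages of operons. Capitals mark the annotated gene, and both are shown on the plus strand, on which both genes lie. The first is at II:5844738-5844938 and the second at II:5543586-5543786.
sls-2.1: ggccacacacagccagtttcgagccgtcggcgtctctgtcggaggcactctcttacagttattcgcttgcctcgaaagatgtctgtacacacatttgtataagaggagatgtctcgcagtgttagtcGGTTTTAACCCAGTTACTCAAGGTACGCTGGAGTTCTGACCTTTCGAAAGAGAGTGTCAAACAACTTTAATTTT
sls-2.2: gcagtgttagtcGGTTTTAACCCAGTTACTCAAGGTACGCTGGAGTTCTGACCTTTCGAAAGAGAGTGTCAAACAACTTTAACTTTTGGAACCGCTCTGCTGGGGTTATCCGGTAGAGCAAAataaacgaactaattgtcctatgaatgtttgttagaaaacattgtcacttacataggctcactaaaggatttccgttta
The summit lay 27 bp before the start of sls-2.1, and 88 bp inside sls-2.2. The 2 genes are 110 bp long and have 102 identical letters.

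The next windows lie at genes of small nucleolar RNAs (snoRNAs), which guide the modification of ribosomal and other RNAs. Each is printed on the strand of its gene, and capitals mark the part of the gene inside the window. The first is at III:8937614-8937814 (plus strand), the second at IV:7574002-7574202 (plus strand) and the third at IV:8428680-8428880 (minus strand).
ZK643.9: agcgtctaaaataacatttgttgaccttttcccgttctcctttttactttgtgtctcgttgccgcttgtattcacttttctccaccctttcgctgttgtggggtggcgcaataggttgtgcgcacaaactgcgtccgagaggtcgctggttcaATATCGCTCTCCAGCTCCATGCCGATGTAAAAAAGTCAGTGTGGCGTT
F32E10.10: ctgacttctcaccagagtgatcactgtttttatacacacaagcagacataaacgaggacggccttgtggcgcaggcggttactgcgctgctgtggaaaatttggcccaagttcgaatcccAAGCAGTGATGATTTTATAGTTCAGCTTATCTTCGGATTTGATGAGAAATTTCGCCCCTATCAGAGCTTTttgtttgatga
T26A8.6: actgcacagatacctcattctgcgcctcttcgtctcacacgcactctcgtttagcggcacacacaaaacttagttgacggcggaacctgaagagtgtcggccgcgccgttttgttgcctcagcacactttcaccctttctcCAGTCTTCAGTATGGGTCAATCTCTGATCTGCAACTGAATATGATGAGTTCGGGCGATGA
In all 3 windows the summit lay upstream of the gene, by 53, 20 and 41 bp.

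The remaining windows hold short motifs, in capitals, and are all shown on the plus strand. The first pair, at III:4656509-4656709 and V:10466685-10466885, holds both CTGCGTCT and a GAGA repeat (GAGAGAGA on either strand). The next, at II:6992993-6993193, holds CTGCGTCT alone of these, and the window at III:8043855-8044055 a GAGA repeat alone. The last, at V:1151380-1151580, holds the Sp1-like letters GGGCGG on its minus strand, at 2 places. A name is that of the gene with the nearest protein-coding 5' end, as a label of position only.
T23F11.2: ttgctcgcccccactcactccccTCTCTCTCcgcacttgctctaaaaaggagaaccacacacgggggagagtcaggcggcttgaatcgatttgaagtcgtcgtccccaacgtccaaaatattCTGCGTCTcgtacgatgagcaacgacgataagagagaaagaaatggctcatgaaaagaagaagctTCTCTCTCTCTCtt
egl-9: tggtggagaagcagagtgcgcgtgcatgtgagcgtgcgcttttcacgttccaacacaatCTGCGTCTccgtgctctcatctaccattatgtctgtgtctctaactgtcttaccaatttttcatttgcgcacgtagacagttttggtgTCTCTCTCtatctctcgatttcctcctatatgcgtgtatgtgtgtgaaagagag
unc-104: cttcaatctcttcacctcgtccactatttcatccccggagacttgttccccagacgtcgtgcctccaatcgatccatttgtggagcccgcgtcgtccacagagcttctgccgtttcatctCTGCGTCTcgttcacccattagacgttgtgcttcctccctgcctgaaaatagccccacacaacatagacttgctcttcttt
K12H4.5: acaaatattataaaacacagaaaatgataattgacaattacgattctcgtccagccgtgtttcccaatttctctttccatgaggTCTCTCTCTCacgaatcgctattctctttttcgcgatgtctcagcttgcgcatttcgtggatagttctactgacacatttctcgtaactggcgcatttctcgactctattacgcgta
cmd-1: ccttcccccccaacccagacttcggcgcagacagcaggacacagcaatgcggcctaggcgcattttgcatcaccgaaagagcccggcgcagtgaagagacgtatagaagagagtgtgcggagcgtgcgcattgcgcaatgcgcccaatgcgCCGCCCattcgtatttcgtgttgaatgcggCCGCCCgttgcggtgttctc
These motifs were searched on both strands in all summit windows, with the counts given further below.

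The signal value of a peak is the authors' own, on a scale not given in the sources used here, and it was compared only within a list. Pooled signals of the 445 peaks ran from 102 to 656, with a median of 147 and quartiles of 118 and 191. In replicate 1 the same peaks had signals of 35.0 to 398 with a median of 86.6, and in replicate 2 signals of 18.1 to 272 with a median of 62.5. The summed replicate signals over the pooled signal had a median of 1.00. Replicate 1 had the higher value at most peaks, since replicate 2 exceeded it at 54 of 445.

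The ratio of replicate 1 to replicate 2 had a median of 1.38, close to the 1.42 of all optimal peaks, with quartiles of 1.15 and 1.68. Across the 445 peaks, which share libraries and a control, Spearman's rho of the replicate signals was 0.623 and Pearson's r of their log2 values 0.652. Summits in the replicates' own lists lay a median of 32.0 bp apart. The peak with the highest ratio, 5.26, was III:3677442-3677911 near C46F11.6, with signals of 114 and 21.6. A peak 504 bp from the 5' end of sue-1, at I:7371803-7372272, had 114 and 26.2, and a peak near scrt-1 had 90.2 and 18.4. At the other end, a peak between xbp-1, a transcription factor gene of the unfolded protein response, and asd-1, a splicing regulator gene, had 51.5 in replicate 1 and 89.9 in replicate 2. The peak at II:7884841-7885310 near perm-1 had 35.9 and 68.5. The lowest ratio, 0.46, belonged to a peak near F40E3.3 that shared its replicate entry with a neighbouring peak, as 12 of the 445 did.

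**Figure D1:**
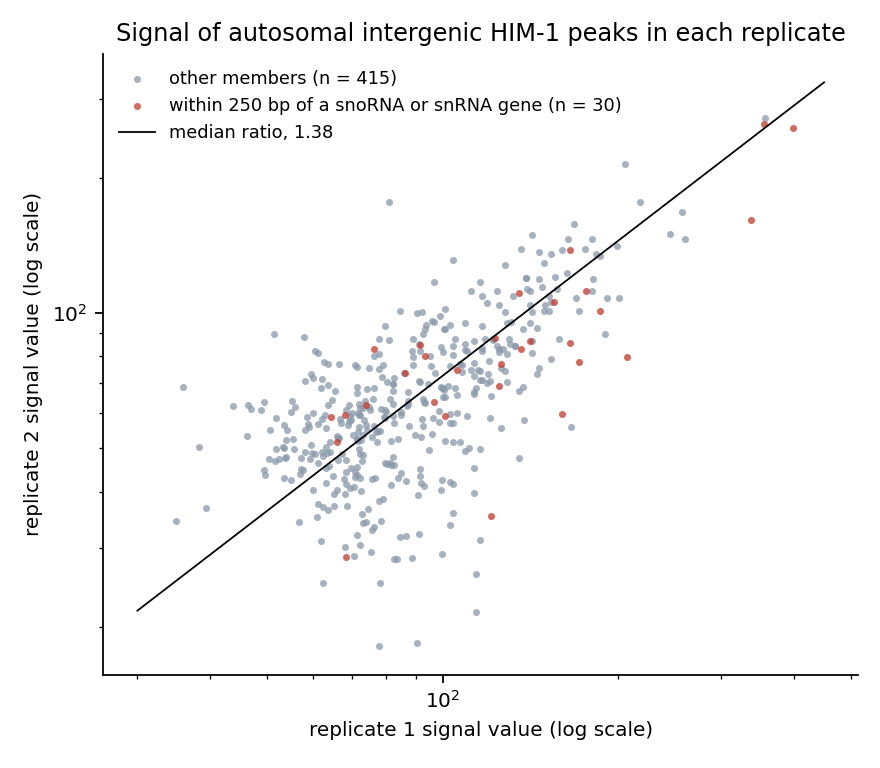
Signal value of each of the 445 peaks in replicate 1 (horizontal axis, log scale) and replicate 2 (vertical axis, log scale). Red points are the 30 peaks within 250 bp of a snoRNA or snRNA gene, and the line marks the median ratio of 1.38. Most peaks lie near the line and the points farthest below it have low signals in replicate 2.

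Of the 445 peaks, 345 (77.5%, 73.4 to 81.2) overlapped one of the 1797 highest entries of both replicates, where 75.9% of all optimal peaks did. The share was near that background. The highest 25% of the optimal list by pooled signal, which is 25.0% of all peaks, held 105 of them (23.6%, 19.9 to 27.8). This count too was near its background, while the intergenic peaks of X had 35.9% (28.5 to 44.1) in that part. Among the 25 highest optimal peaks 3 were autosomal intergenic (12.0%), and among the 50 highest 8 were (16.0%). Among the 100 highest 13 were (13.0%, 7.76 to 21.0), and among the 200 highest 43 were (21.5%). Each share was below that of the whole list, in which 445 of 1797 were autosomal intergenic. Only for the 100 highest did the whole interval lie below it. In the pooled list before thresholding, 2782 entries met the same distances and 16.0% of them were optimal, beside 14.7% of all entries. The rule used that threshold, so nothing is read from this difference.

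Above the threshold of the optimal list, the typical signal of autosomal intergenic peaks was about that of promoter peaks. The median log2 signal was higher than that of promoter peaks by 0.03, and the difference was 0.01 in replicate 1 and -0.02 in replicate 2. It was higher than that of autosomal peaks inside transcripts by 0.09, with 0.08 and 0.11 in the replicates. Against the intergenic peaks of X the difference was -0.13, with -0.16 and -0.08 in the replicates. The same threshold cut every class, with a lowest pooled signal of 103 on X and 102 in the others. The medians therefore depend on that threshold, and their likeness says nothing about sites below it. The upper ends differed more than the medians. The highest autosomal intergenic peak had 656, the highest promoter peak 1042, the highest peak inside an autosomal transcript 428 and the highest intergenic peak of X 882.

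The highest autosomal intergenic peak, II:5844721-5844983, had a pooled signal of 656, with 398 in replicate 1 and 258 in replicate 2. It lay at sls-2.1, between the convergent genes nep-25 and ZK1248.17, 703 bp downstream of the 5' end of ZK1248.17. The peak at sls-2.4, I:4172064-4172347, had 609.9, with 355 and 263, and lay 601 bp upstream of egg-5, a gene of the transition from egg to embryo. The peak at sls-2.2, II:5543563-5543894, had 483, with 337 and 161, and its nearest 5' end was that of ins-13, an insulin-like peptide gene. SL2 genes thus held 3 of the 4 highest places. The fourth was V:1151379-1151689, with 624 pooled, 357 and 272, whose summit lay inside linc-128, a long intergenic non-coding RNA gene, and 4791 bp upstream of cmd-1, the calmodulin gene. Its window had a GC content of 60.7%, the median over all 445 being 46.8%.

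The annotation held 18 sls-2 genes, of which 8 start in eligible sequence, and of these sls-2.1, sls-2.2 and sls-2.4 had one of these peaks within 250 bp. The neighbouring sls-2.3 has 102 letters identical with sls-2.1 over its 110 bp and had none within that distance. A second peak near sls-2.2, II:5543638-5543898 (168), had its summit only slightly beyond that distance from sls-2.3. Words of 36 letters from the sls-2.1 window occurred elsewhere in the genome in 34.3% of cases, from the sls-2.2 window in 28.3% and from the sls-2.4 window in 10.8%. The part of these copies in the signal was not tested. Another high peak, I:2639739-2639861 near F40E3.3 (398, with 218 and 177), had 33.1% of its words repeated, up to 8 times, while the other 16 of the 20 highest peaks had none repeated.

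On chromosome III the highest, at III:4899656-4900125 (433, with 257 and 168), lay between tag-340 and nhl-2, which encodes a TRIM-NHL protein of the microRNA pathway. The peak at III:8043720-8044189 had 422, with 205 in replicate 1 and the larger value, 215, in replicate 2, and lay 532 bp upstream of K12H4.5. A peak 2022 bp upstream of sup-26, an RNA-binding protein gene, had 394, with 260.0 and 146. A peak 7218 bp upstream of F54F12.1 had 391, with 245 and 150.0.

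The peak at II:6992858-6993327, 1894 bp upstream of unc-104, the kinesin that carries synaptic vesicle precursors, had 329 (199 and 141). The peak 1085 bp upstream of egl-3, a proprotein convertase that processes neuropeptides, had 325 (186 and 134). The peak near jph-1, a junctophilin gene, had 314 (183 and 135). The peak at V:20778231-20778700, 1941 bp upstream of hif-1, the hypoxia-inducible factor, had 309 (160.3 and 138). A lower peak, 228 at V:10466550-10467019, lay nearest egl-9, whose product marks HIF-1 for degradation in the presence of oxygen.

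Others of the 20 were near sor-1 (318), which represses Hox genes, mtm-3 (312), a myotubularin gene, nlp-4 (307), a neuropeptide-like gene, F58D5.5 (306), T23E1.1 (303) and swsn-7 (301), a subunit gene of the SWI/SNF chromatin remodeller. On chromosome IV the T23E1.1 peak was the highest (200.1 and 108), followed by 289 (146 and 137) upstream of usp-4, a ubiquitin protease gene, with lin-45, the Raf gene, on its other side. A second peak near egg-5, overlapping the sls-2.4 entry, had 350.3 (207 and 79.8). The 3 farthest from any 5' end had low signals. Of these, 105 at 11428 bp and 132 at 10773 bp lay in the interval between snt-1, the synaptotagmin gene, and egl-27, a chromatin regulator gene, and the third, at 10919 bp, had 118.

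At the edges of the rule the values ran on. The 3 peaks just past the 500 bp distance, at 501, 504 and 510 bp, had signals of 115, 132 and 136, and the 3 just within it, at 499, 496 and 496 bp, had 139, 277 and 277. The peak just past the tRNA distance had 153 and the one just within it 128. The lowest members had 102, as did the highest pooled entries outside the optimal list.

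Per eligible Mb, chromosomes I and III carried more of these peaks than V. Counts were 103 on I (30.6 per eligible Mb), 83 on II (19.1), 97 on III (29.3), 84 on IV (14.5) and 78 on V (12.1), with 19.1 over all autosomes and 21.5 for the 142 intergenic peaks of X. Median signals varied less, from 132 on II to 156 on IV. The densest and the sparsest chromosome differed more in number than in typical signal, which the threshold of the list bounds from below.

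On every autosome the middle 50% of the length was denser than the outer 25% at each end. The centres together held 293 peaks in 11 Mb (26.6 per eligible Mb) and the outer parts 152 in 12.3 Mb (12.4), a ratio of 2.15. The ratio was 1.99 on I, 1.96 on II, 1.97 on III, 2.14 on IV and 2.73 on V. On X the order was the opposite, with 17.1 per Mb in the centre and 25.1 in the outer parts, a ratio of 0.68. These densities are per length of eligible sequence and were not adjusted for the number of genes around it.

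**Figure D2:**
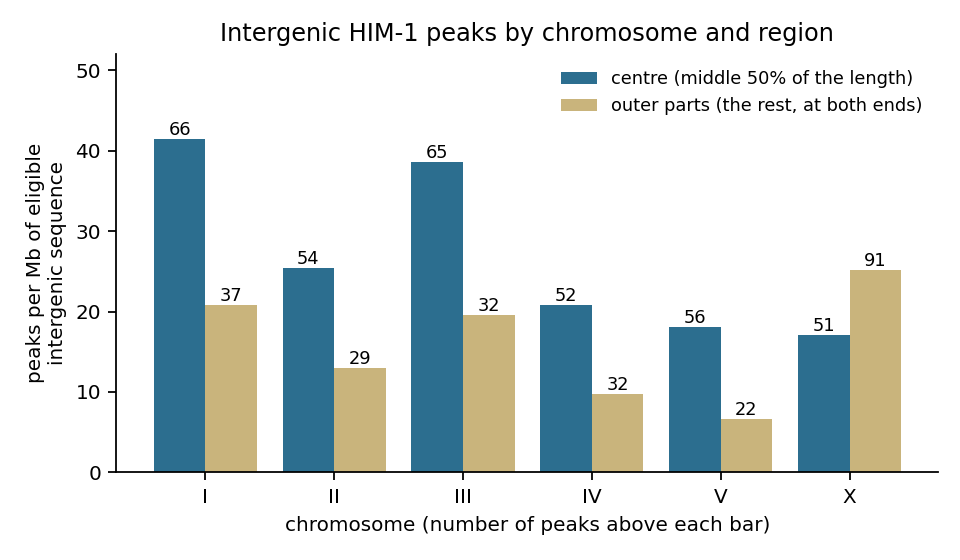
Intergenic HIM-1 peaks per Mb of eligible intergenic sequence (vertical axis) on each chromosome, for the centre (middle 50% of the length, blue) and the outer parts (25% at each end, tan), with the number of peaks above each bar. The centre bar is higher on all 5 autosomes, and the outer bar is higher on X.

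Peaks were sparse between convergent genes and denser near 5' ends. Between divergent genes there were 153 peaks (34.4%), or 21.1 per eligible Mb, and between tandem genes 253 (56.9%), or 20.1. Convergent pairs, where both neighbours end toward the interval, had 39 (8.76%, 6.48 to 11.8), or 11.5 per Mb, and made up 14.6% of eligible sequence. The exclusion of 500 bp around 5' ends applied to the sequence as well as to the peaks. Median signals were alike, at 143, 147 and 143.

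The distance to the nearest protein-coding 5' end had a median of 1897 bp, with quartiles of 1041 and 3202. Density was highest just past the excluded distance and lower with each step away. It was 24.4 per eligible Mb at 501 to 1000 bp, 20.3 at 1001 to 2000 bp, 18.5 at 2001 to 5000 bp and 12.9 beyond 5000 bp. Upstream of the nearest 5' end lay 340 peaks (76.4%, 72.2 to 80.1), where 69.7% of the eligible sequence lies. In intervals between genes of up to 2000 bp the density was 27.7 per Mb, and in intervals over 10000 bp it was 14.2.

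A minority of the peaks had company. The next optimal summit lay within 1000 bp of 75 (16.9%, 13.7 to 20.6), with 9.25% (7.22 to 11.8) of promoter peaks, 16.5% of peaks inside transcripts and 19.0% of intergenic peaks of X. The median distance to the next optimal summit was 5988 bp. Most of these were overlapping entries, as 65 of the 445 (14.6%, 11.6 to 18.2) overlapped another optimal entry. So did 7.18% of promoter peaks, 15.8% of peaks inside transcripts and 18.3% of intergenic peaks of X. Of the 445, 60 overlapped another of the 445, leaving 415 distinct stretches. Entries were 470 bp wide in 439 cases. The 6 narrower ones had a median signal of 546, against 145 for the rest.

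The peaks were spread over many genes. They were nearest to 379 different protein-coding genes, of which 58 were nearest to more than 1 and none to more than 3. Overlapping entries were counted separately here, and 60 of the 445 overlapped another of the 445. Among them were the entries of 184 and 134 near tax-6 and those of 244 and 135 near K08F11.1. The genes with 3 were F54F12.1 (391, 224 and 113), rho-1, a small GTPase gene (251, 143 and 105), K08F11.1 (244, 191 and 135), tra-1, the last regulator of the sex determination pathway (202, 132 and 118), din-1 (193, 134 and 131), tax-6, the calcineurin catalytic subunit gene (184, 134 and 111), dpsm-1 (138, 120.1 and 119) and rps-25 (134, 118 and 117). Within each gene the highest of the 3 peaks was below the 20 highest, apart from F54F12.1.

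Few of the peaks had their nearest 5' end at a gene of the listed families. Of 10 autosomal cohesin genes 1 was, mau-2, which encodes a part of the cohesin loader, with a peak of 269 (146 and 119) at I:8124349-8124818, 1217 bp upstream, which is 0.225% of the peaks beside 0.0580% of autosomal protein-coding genes. Nuclear hormone receptors had 4 of the 445 peaks (0.899%) and make up 1.43% of autosomal protein-coding genes, with nhr-88 the highest (274). Homeobox genes had 2 (0.449%, beside 0.336% of genes), near ceh-48 (229) and ceh-22. Cuticle collagens also had 2 (0.449%, beside 0.748%), near col-108 (115) and col-50. Cytosolic ribosomal protein genes had 3 (0.674%, beside 0.447%), all of them near rps-25 and the highest 5507 bp away, and core and linker histone genes (0.435% of genes) and major sperm protein genes (0.180%) had none. Each of these counts is small, and the nearest gene is not known to be the one a site acts on.

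Genes of snoRNAs and snRNAs were close to a larger share of these summits than of eligible sequence. A snoRNA gene lay within 250 bp of 22 of 445 summits (4.94%, 3.29 to 7.37), where 0.217% of eligible sequence is that close to one. An snRNA gene lay within that distance of 8 (1.80%, 0.914 to 3.51), where 0.121% of eligible sequence is. These 8 entries lay near 6 snRNA genes, since sls-2.4 (609.9 and 350.3) and sls-2.2 (483 and 168) each had 2 overlapping entries. Together with sls-2.1 (656) these are SL2 genes, and the entries at the remaining snRNA genes had 218, 204 and 152. The snRNA share, and the snRNA median given below, thus rest mostly on entries at SL2 genes. Over all optimal peaks the snoRNA and snRNA shares were 3.67% and 1.06%, both inside these intervals. That list also holds peaks at promoters, inside transcripts and on X, for which no like share of sequence was taken. Median signals were 189.7 at snoRNA and 284 at snRNA genes, and 139.8 for the 302 peaks with no non-coding gene or pseudogene within 250 bp. Most other classes were above 139.8 too, with medians of 253 near miRNA, 198 near lincRNA, 155 near ncRNA genes and 154 near pseudogenes, while peaks near piRNA genes had 129.

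Counted by gene, 22 of the 88 snoRNA genes that start in eligible sequence had a peak (25.0%, 17.1 to 35.0), and 5 of 49 snRNA genes (10.2%, 4.44 to 21.8). Of those 5 snRNA genes, sls-2.1, sls-2.2 and sls-2.4 are SL2 genes. The summit lay upstream of 18 of the 22 snoRNA genes, inside 3 and downstream of 1, with a median of 40.0 bp before the gene start. After F59C6.15 (307, with 165 and 138) and ZK265.10 (289.9, with 176 and 112), both on chromosome I, the highest were ZK643.9 (283, with 186 and 101), F32E10.10 (264, with 155 and 106), M7.15 (258, with 135 and 110.5), W06H8.17 (257, with 171 and 77.6) and T26A8.6 (248). Besides the SL2 genes, the snRNA genes were F54D8.7 (218), F38E11.11 (204) and T11F9.15 (152).

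In a count added after the snoRNA windows had been seen, the letters GTTCGANNC, part of the B box of tRNA genes, lay in 6 of the 22 snoRNA windows (27.3%) and in 3 of the 302 windows far from non-coding genes (0.993%). The window at F32E10.10 printed above is one of the 6. None of the 22 held a GAGA repeat and 1 held CTGCGTCT, which stood at 55 (18.2%) and 74 (24.5%) of the 302. With 22 windows these shares are coarse, and their difference was not tested.

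Other classes went in different directions. Genes of the annotation's general ncRNA class lay within 250 bp of 99 summits (22.2%, 18.6 to 26.3), against 4.55% of eligible sequence, and 53 of these summits lay inside the gene. The share was 23.2% over all optimal peaks, so it was no higher here. Long intergenic RNA genes were near 8 (1.80%, 0.914 to 3.51), against 0.959% of sequence and 0.723% of all optimal peaks. MicroRNA genes were near 4 (0.899%, 0.350 to 2.29), against 0.195% of sequence and 0.501% of all optimal peaks, at cel-mir-8209 (314, on 2 overlapping entries), cel-mir-52 (225) and cel-mir-53 (111).

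Piwi-interacting RNA genes and pseudogenes were less common near these summits than in eligible sequence. Over all optimal peaks, for most of which eligible autosomal sequence is not a like background, each had 0.946%. piRNA genes lay near 7 (1.57%, 0.764 to 3.21), against 7.89% of eligible sequence, all on chromosome IV, with 169 the highest signal. Pseudogenes lay near 10 (2.25%, 1.23 to 4.09), against 14% of eligible sequence. Neither antisense RNA nor rRNA genes had a summit within 250 bp (0 of 445, which allows up to 0.856% by its interval), and they cover 0.0845% and 0.0811% of the eligible sequence.

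**Figure D3:**
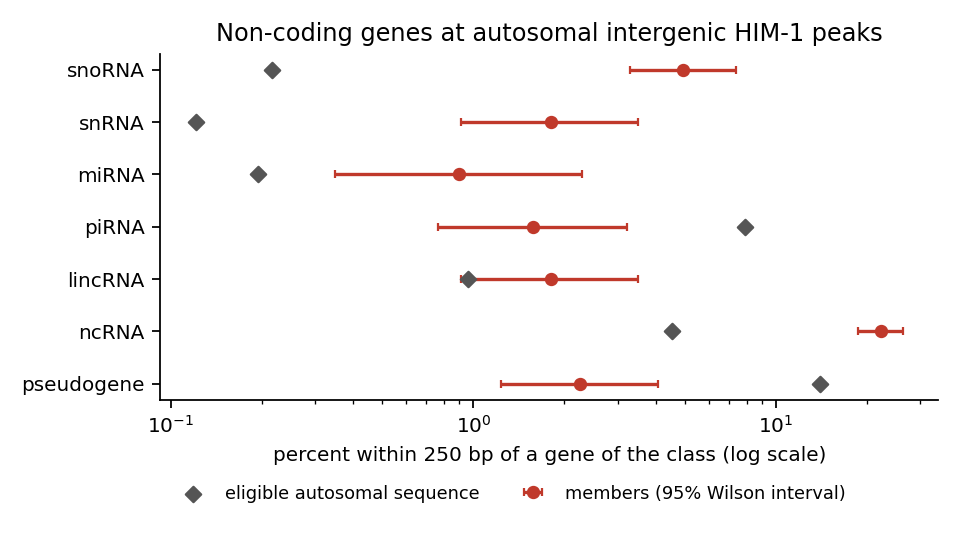
Share within 250 bp of a gene of each class (horizontal axis, percent, log scale) for the 445 autosomal intergenic peaks (red, with 95% Wilson intervals) and for eligible autosomal sequence (grey diamonds). The red points lie to the right of the diamonds for snoRNA, snRNA, miRNA and ncRNA genes and to the left for piRNA genes and pseudogenes, and the lincRNA interval reaches its diamond.

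The summits were rich in GC for intergenic sequence. The median GC content within 100 bp was 46.8%, with quartiles of 41.8% and 50.7%, where eligible autosomal windows of the same size had 33.8% and all optimal peaks 45.8%. It was 42.8% at autosomal promoter peaks, 47.3% inside transcripts and 48.3% at the intergenic peaks of X. Over the 445, GC was 33.9% in the bin centred 490 bp before the summit and 48.3% in the bin centred 10 bp after it. Windows over 50% soft-masked as repeats or low complexity made up 8.09% of the 445, near the 9.24% of all optimal peaks, and 34.4% of eligible windows. The part of GC content in the signal values was not tested.

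GC and the share near non-coding genes were both larger among the taller peaks. From the highest 25% of the 445 by signal to the lowest, the median GC was 49.3%, 47.8%, 45.3% and 43.3%. The share with a non-coding gene or pseudogene within 250 bp was 38.7%, 36.9%, 32.4% and 20.5%. The GAGA share showed no such order, at 19.8%, 15.3%, 17.1% and 15.2%.

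Of the 11 motifs searched, CTGCGTCT and the GAGA repeat exceeded their share of eligible windows by the most. The motifs were chosen with earlier results of these data known, so their excess and their order are descriptions and not independent support. CTGCGTCT lay within 100 bp of 92 summits (20.7%, 17.2 to 24.7) and in 1.33% of 115654 eligible windows. All optimal peaks had 14%, promoter peaks 12.9%, peaks inside transcripts 14.5% and intergenic peaks of X 7.75%. The GAGA repeat lay in 75 windows (16.9%, 13.7 to 20.6), against 1.72% of eligible windows, 13.1% of all optimal peaks, 9.25% at promoters, 21.1% inside transcripts and 12.0% at the X peaks. Each was above its share of eligible autosomal windows in all 4 kinds of peak, and whether the kinds of peak differ was not tested.

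Some windows held both motifs. They numbered 30, which is 40.0% of those with GAGA and 32.6% of those with CTGCGTCT. The letters around CTGCGTCT were also similar from site to site, in a count added after seeing the data. Of its 102 occurrences 83.3% followed a T and 86.3% preceded a C, and so did 76.8% and 80.8% of 1721 occurrences in eligible sequence.

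Both motifs were in a larger share of windows on some chromosomes than on others. CTGCGTCT had 25.2% on I, 12.0% on II, 24.7% on III, 23.8% on IV and 15.4% on V. GAGA had 22.3%, 10.8%, 17.5%, 21.4% and 10.3% in the same order. II and V were the lowest for both motifs. The GAGA counts there were 9 of 83 and 8 of 78. Shares of eligible windows and of all optimal peaks were not taken by chromosome, so nothing is read from these differences.

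Other motifs were also set beside all optimal peaks. The CA repeat (CACACACA) lay in 11.7% (9.02 to 15.0) of windows, against 1.40% of eligible windows and 9.52% of all optimal peaks. The Sp1-like letters lay in 11.2% (8.63 to 14.5), against 3.36% of eligible windows and the same 11.2% of all optimal peaks. The E2F-like letters (TTTCGCGC or TTTGGCGC) had 3.37% (2.05 to 5.49), against 1.29% of eligible windows and 3.28% of all optimal peaks. The E-box (CACGTG) had 4.94% (3.29 to 7.37), against 2.80% and 4.06%. For these 4 motifs the share over all optimal peaks lay inside the interval. The CRE (TGACGTCA) had 1.57% (0.764 to 3.21), against 1.11% of eligible windows and 1.56% of all optimal peaks. The B box part had 2.47% (1.39 to 4.37), against 1.51% of eligible windows and 6.40% of all optimal peaks, which include those at tRNA genes that the rule leaves out. GATA letters (GATAAG) were fewer than in eligible windows, at 3.15% (1.88 to 5.21) against 7.07%, with 4.56% of all optimal peaks. The core of the MEX motif of dosage compensation (GCGCAGGG) lay in 1 window (0.225%, 0.0397 to 1.26), against 0.0579% of eligible windows and 1.17% of all optimal peaks, and in 7.75% of the intergenic peaks of X.

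The highest with an E-box was 614 bp upstream of rpa-2, a gene of the replication protein A complex that binds single-stranded DNA, with a signal of 253 (149.8 and 104). The highest with E2F-like letters lay between Y54G11A.2 and hmg-1.1, an HMG protein gene, with 240.5 (141 and 104). The highest with a CRE lay nearest mvk-1, the mevalonate kinase gene, with 219 (125 and 104). The window with the MEX core, at III:5080694-5081163, lay 795 bp upstream of cox-6A, a cytochrome c oxidase subunit gene, and 31 bp before the snRNA gene F54D8.7, with 218 (160.3 and 59.6).

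Because the peaks are richer in GC, the same shares were taken in windows of like GC, an addition made after seeing the data. In the GC range of 41.8% to 50.7%, CTGCGTCT had 22.3% of 238 peaks against 4.37% of 15592 eligible windows and GAGA 19.3% against 4.24%. The CA repeat had 11.8% against 2.94%. These 3 stayed well above like windows. The Sp1-like letters were close, at 10.1% against 8.02%. The E2F-like letters had 3.78% against 2.67%, the E-box 6.30% against 4.89% and GATA letters 4.62% against 6.83%. The CRE had 2.52% against 1.93%, the B box part 4.20% against 2.50% and the MEX core 0.420% against 0.128%. The T run (TTTTTTTT) turned about, since it had 19.1% (15.7 to 23.0) of all 445 against 25.0% of all eligible windows and 15.4% of all optimal peaks, but 16.4% against 8.52% at like GC.

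**Figure D4:**
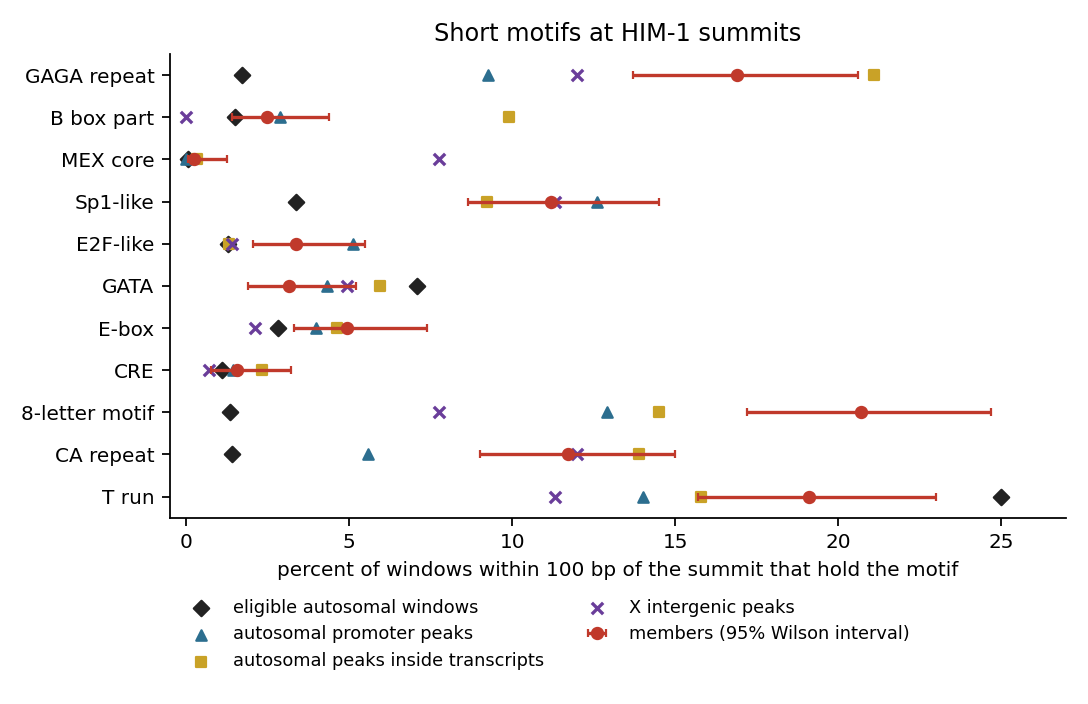
Percent of windows within 100 bp of the summit that hold each motif (horizontal axis), for the 445 autosomal intergenic peaks (red, 95% Wilson intervals), autosomal promoter peaks, autosomal peaks inside transcripts, intergenic peaks of X and eligible autosomal windows (black diamonds). The 8-letter motif is CTGCGTCT, with 20.7% at the red point and 1.33% at the diamond.

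Both motifs were most frequent near the summit. CTGCGTCT lay in 9.44% of the 445 in the 50 bp bin centred 25 bp before the summit and in 0.449% in the bin at 475 bp before it. The GAGA repeat peaked in the same bin, at 6.97%. The T run was least frequent in the bin centred 25 bp after the summit, at 2.92%. Any of the GAGA, CTGCGTCT, Sp1-like and CA motifs lay in 200 windows (44.9%), and 158 (35.5%) held none of the 11.

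**Figure D5:**
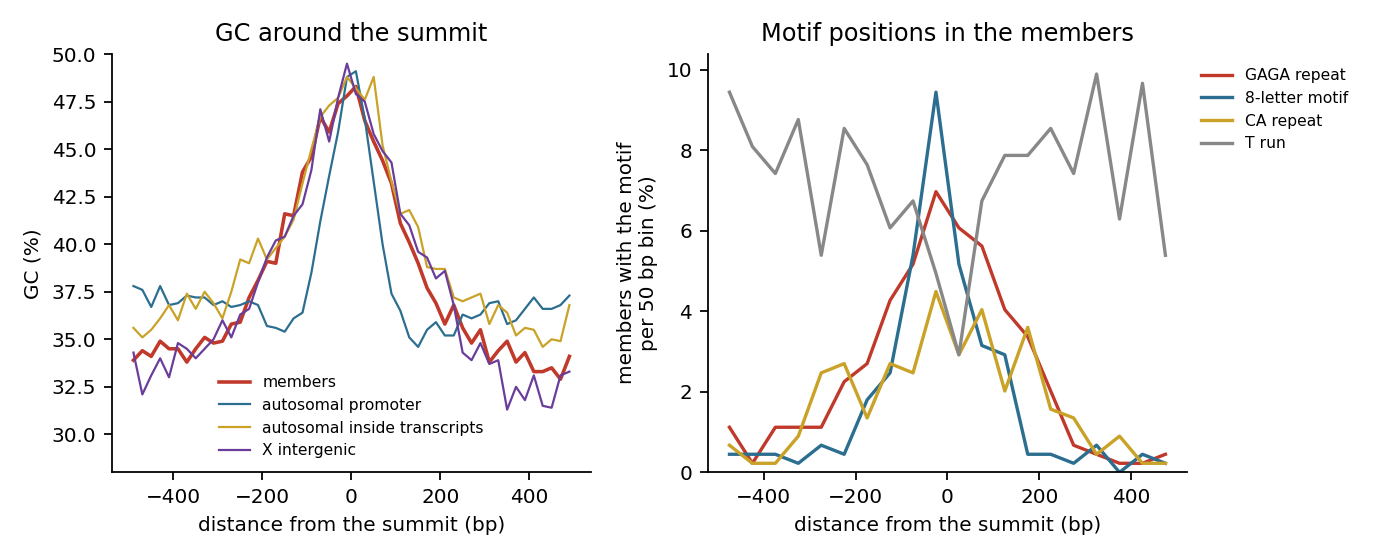
GC percent in 20 bp bins (left) and percent of the 445 peaks with each motif in 50 bp bins (right) against distance from the summit in bp, the left panel also for the other peak classes. GC and the GAGA and 8-letter motifs are highest at the centre, with 9.44% for the 8-letter motif (CTGCGTCT), and the T run is lowest there.

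Repeated sequence concerned few of these peaks. At least 50% of the 36-letter words in the window occurred elsewhere in the genome for 8 of 445 (1.80%, 0.914 to 3.51), against 0.835% of all optimal peaks, 0.797% of promoter peaks, 0.330% of peaks inside transcripts and none of the intergenic peaks of X. Any such word occurred in 31 (6.97%), against 11.7% of all optimal peaks. The highest of the 8 was V:15590180-15590649 near fbxa-139, with a signal of 280.1 and 69.9% of its words repeated. The read length is unknown here.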

How the data were processed

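Each of 2 replicate libraries had a narrowPeak list in ce11, and there was a pooled list and an optimal list thresholded by the irreproducible discovery rate (IDR), per the text deposited with each sample. The signal value of each entry is as deposited by the authors, and no source used here gives its scale, the aligner or the caller. Entries also carry a −log10 q-value made by the authors, which was not used to choose or rank peaks. The lists hold no read counts, so depth is unknown and no value was adjusted for it. Lists in ce10 were not used, and no coordinates were converted.

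Summits (start plus offset) were set against Ensembl release 115 gene positions, and sequence came from the RefSeq copy of WBcel235. Eligible sequence was sampled every 10 bp, and motifs were searched in 201 bp windows. The pooled optimal list gave all main values. No test was run, since there is 1 group. Code was tested on simulated data. The members, gene lists, motifs and named peaks were chosen with earlier results of these data known. Named peaks were the 20 with the highest signal, the highest 2 per autosome, those with extreme replicate ratios, the highest for each class and motif, the farthest from a 5' end and those at the edges of the rule. Others named were picked after their values were seen. Alternatives changed distances, windows, annotation, the threshold and the replicate used. The work used NumPy 2.4.6 and SciPy 1.17.1 under Python 3.11.15, with plots from matplotlib 3.10.9.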

Additional observations from a re-analysis of the deposited data

How the results depend on the processing

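Of the recomputed values of the main results, 74 moved by less than a set limit and 33 by more. The limit was the spread between replicates or the counting interval, except that the number of peaks was judged by a fixed factor. By that factor 584 peaks with a promoter distance of 250 bp and 339 with 1000 bp counted as unmoved from 445. So did the 340 whose whole entry met the rule. With the 50% of the optimal list of highest signal there were 226 peaks, the difference in median log2 signal from peaks inside transcripts was 0.01, the snoRNA share was 7.52%, the snRNA share 3.54%, the T run share 11.1% and the median GC 48.5%. The centre to outer ratio was 1.79 with a narrower centre, the middle of 3 equal parts. Without 1 replicate it ranged from 2.03 to 2.17, the median GC was 46.3% either way, and the T run share ranged from 15.7% to 19.1%. The difference from promoter peaks was -0.02 in replicate 2, 0.05 with a promoter distance of 250 bp and -0.01 with 1000 bp, so its sign was not stable, and the difference from peaks inside transcripts was 0.12 with 1000 bp. With a smaller number of top entries per replicate, 44.0% of peaks overlapped one in both. Counting summits inside genes only gave 0.674% for snoRNA, 0.225% for snRNA, 11.9% for ncRNA, 0% for piRNA and 0.899% for pseudogenes, and a distance of 500 bp gave 3.60% for piRNA. Windows of 50 and 200 bp on each side gave 11.7% and 26.1% for GAGA, 13.7% and 26.1% for CTGCGTCT, 6.29% and 18.9% for the Sp1-like letters, 7.64% and 38.0% for the T run, and a median GC of 47.5% and 43.1%. Another summit lay within 2000 bp of 26.5%. Wider windows and distances take in more sequence by construction, and narrower windows or summits inside genes only take in less. The number of peaks from part of the optimal list and the overlap with fewer top entries are likewise lower by construction. The cause of the other moves was not tested. No paired analysis was possible because there is 1 group. The 2 replicates share a control, and the unknown depth limits every value.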
